A study of Homo sapiens with 8 samples.

Results

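The Flag-OGT libraries of MHCC-97L were compared with the control libraries of the same line. MHCC-97L is an established human hepatocellular carcinoma cell line whose name marks a low metastatic potential. These 4 libraries, 2 a group, were chosen by their labels out of 8 RNA libraries of the series, the other 4 being the same design in MHCC-97H, a line named for a high metastatic potential. The Flag-OGT cells received full-length human OGT with a C-terminal Flag tag through a lentiviral vector that also carries luciferase, and were kept under neomycin selection as stable lines. The controls carry no genotype label, and the sources used here do not say whether they held a vector without OGT. All cells grew in the same serum-containing medium, and whether the stable cells were 1 clone or a pool is not given. The series concerns OGT bound to chromatin and ZNF263, a zinc-finger protein; its chromatin libraries were not analysed here.

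OGT is the only enzyme known to place single N-acetylglucosamine sugars (O-GlcNAc) on serines and threonines of nuclear and cytosolic proteins, and OGA removes them. The donor, UDP-GlcNAc, is made from glucose, glutamine, acetyl-CoA and uridine in the hexosamine pathway. On chromatin OGT works with HCF-1, the BAP1 deubiquitinase, TET proteins and SIN3A. In liver O-GlcNAc is known as a nutrient-responsive mark on metabolic regulators.

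Levels are the authors' FPKM, fragment counts scaled to transcript length and library size, given for library 1 and library 2 of a group. Differences are on the log2(FPKM + 1) scale, Flag-OGT minus control, ± SE, and understate the change of low genes. A gene was called at a limma p under 0.05 after Benjamini-Hochberg adjustment over the 13671 genes with a mean of at least 0.5 FPKM over the 4 libraries. A gene with a lower mean in 1 group could pass this filter only through the other group, so the filter set its direction. Counts of rises and falls below include such genes. No label ties the 2 libraries of a group to separate cultures, so the p-values cover only the spread between them, which may be technical. In RNA from whole cultures, fewer cells of a type and less RNA per cell cannot be told apart. Read depth is unknown. The genes named were chosen by size of change within lists, by a rule given with the processing, and some others after their values were seen. Summed FPKM was 560237 and 562622 in control libraries and 613101 and 606991 with Flag-OGT, and 11607 to 11958 genes a library reached 1 FPKM.

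The libraries labelled Flag-OGT stood far apart from the controls and lacked the defining markers of the labelled cell type. Across tested genes, replicates correlated at r of 0.998 in either group, and control with Flag-OGT libraries at 0.749 to 0.755; genes are not independent, so these values describe the libraries. HNF4A, the central transcription factor of hepatocytes, was at 13.9 and 13.4 FPKM in control libraries and 0.02 and 0.01 FPKM with Flag-OGT. Albumin (ALB) was at 13.4 and 14.2 against 0.12 and 0.07 FPKM. KRT8, a keratin of simple epithelia, was at 4140.4 and 4128 against 12.03 and 5.62 FPKM. For these 3 genes the groups did not overlap, as for 91.8% of all tested genes, and HNF4A and ALB were near 0 with Flag-OGT. The summed level of the 44 secreted hepatocyte proteins was 489.06 and 495.48 FPKM in control libraries and 60.63 and 53.38 FPKM with Flag-OGT. All rises and falls below are therefore differences between labelled libraries, and the part of the introduced gene in them was not tested.

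Markers of other cell types were low in either group apart from a few genes. The 12 fibroblast markers summed to 4.78 and 5.49 FPKM in control libraries and 16.16 and 15.23 FPKM with Flag-OGT; DCN and COL1A2 were listed at 0 in both Flag-OGT libraries. The 3 tested markers diverged, but each passed the filter through only 1 group, so the filter set these directions. LUM, a matrix proteoglycan that held most of the control sum, fell from 4 and 4.96 to 0.08 and 0 FPKM (-2.39 ± 0.13), and the gain lay in COL1A1 and ACTA2. The 11 leukocyte markers with values summed to 70.08 and 70.52 FPKM against 8.74 and 9.69 FPKM, nearly all of it CD68 in the controls (63.7 and 63.4 FPKM), with the pan-leukocyte gene PTPRC at 0.58 and 0.39 FPKM. The 11 endothelial markers summed to 47.32 and 44.92 against 2.78 and 2.92 FPKM, with CDH5 at 0.04 and 0.06 FPKM in control libraries and at 0 in Flag-OGT libraries. Among tested endothelial markers ESAM (37.2 and 35.8 to 0.97 and 1.15 FPKM) and PECAM1 (8.57 and 7.64 to 0.48 and 0.40 FPKM) fell and TIE1 rose. LYZ rose and ITGAM fell among leukocyte markers.

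Of the 13671 tested genes 11555 were called, 84.5%, with 6817 higher (49.9%) and 4738 lower (34.7%). At a change of at least 2-fold 2531 were higher (18.5%) and 2214 lower (16.2%). Lists below in which about 84.5% of the tested members were called do not stand out by that count. The libraries of the groups did not overlap for 12554 genes (91.8%). The median gene was higher by 0.19 on the log2 scale. With median-of-ratios scaling the median gene moved to 0.02, and 5779 genes were called higher and 5665 lower; changes near 0.19 are thus no more than the shift of the median gene. The largest changes were losses: 520 genes were called lower by at least 3 on the log2 scale and 225 higher, and at 5 or more the counts were 151 and 28.

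**Figure D1:**
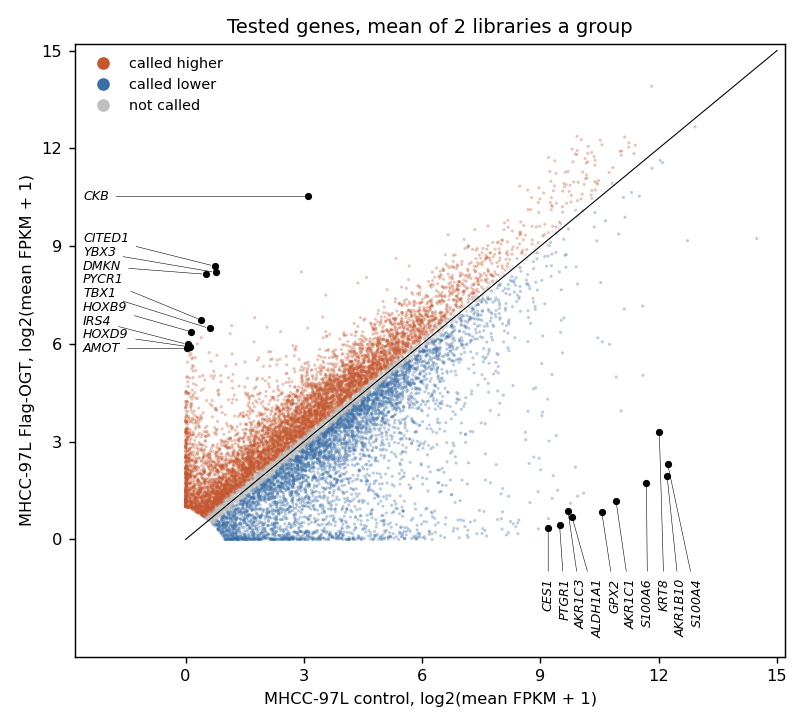
Each point is a tested gene, at log2 of its mean FPKM + 1 in the MHCC-97L controls (x) and in the Flag-OGT libraries (y), with 2 libraries a group; orange was called higher, blue called lower and grey not called, and the line marks equal levels. The 10 genes highest and lowest by log2 change are labelled, and apart from CKB no labelled gain reaches the control level of any labelled loss.

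The 10 highest changes were those of CITED1, DMKN, YBX3, CKB, PYCR1, HOXB9, IRS4, TBX1, AMOT and HOXD9. IRS4, a docking protein of insulin and IGF receptors, went from 0.07 and 0.01 to 58.5 and 65.9 FPKM (5.92 ± 0.07, adjusted p = 1.3e-12). TBX1, a T-box factor of pharyngeal development, went from 0.64 and 0.41 to 89.9 and 85.8 FPKM. AMOT, a scaffold that holds YAP in the cytoplasm, went from 0.03 and 0.03 to 54.8 and 59.4 FPKM. For these 3 genes both Flag-OGT libraries were far above both controls. The 10 lowest were AKR1B10, S100A6, S100A4, AKR1C1, GPX2, ALDH1A1, PTGR1, CES1, AKR1C3 and KRT8. CES1, the liver carboxylesterase, fell from 598 and 572 to 0.23 and 0.30 FPKM (-8.86 ± 0.08, adjusted p = 2.2e-13). PTGR1, a prostaglandin reductase, fell from 743 and 688 to 0.21 and 0.49 FPKM. Both genes were high in both controls and nearly absent with Flag-OGT. In 45 genes both controls were under 0.1 FPKM and both Flag-OGT libraries at 10 FPKM or more, and 83 went the opposite way. The 45 included 4 genes of the HOXD cluster, SIX2, CCND2, the guidance ligand SLIT2 and the Wnt factor LEF1, and the 83 included the plasma copper carrier CP, the brush-border protein VIL1 and 5 UGT genes; these examples were chosen after their values were seen.

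OGT, the introduced gene, was at 45.7 and 43.9 FPKM in control libraries and 51.0 and 54.5 FPKM with Flag-OGT, a change of 0.23 ± 0.06 (adjusted p = 3.4e-03). Both Flag-OGT libraries were above both controls, by little more than the median gene. With median-of-ratios scaling the change was 0.02 (adjusted p = 0.69) and with a common sum 0.11 (adjusted p = 0.10), so the call depends on the scaling. Reads of the introduced and the endogenous copy are counted together. OGA was at 10.8 and 11.1 and rose to 29.1 and 33.2 FPKM (1.43 ± 0.08).

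Of the 15 hexosamine and O-GlcNAc genes, all tested, 7 rose and 6 fell, with a median change of -0.18 against 0.19 for all tested genes. GFPT1 and GFPT2 encode the enzyme of the entry step of the pathway. GFPT1 was at 20.0 and 18.6 FPKM in control libraries and 4.22 and 3.78 FPKM with Flag-OGT. GFPT2 was at 3.90 and 3.99 FPKM in control libraries and 15.7 and 14.2 FPKM with Flag-OGT. The isoform with the higher level was thus GFPT1 in both controls and GFPT2 in both Flag-OGT libraries. Of the later steps, UAP1, which makes UDP-GlcNAc, rose from 7.47 and 8.58 to 25.4 and 28.1 FPKM. Its relative UAP1L1 fell from 19.3 and 19.3 to 10.8 and 10.9 FPKM. PGM3 (0.44) and GNPNAT1 (0.35) rose less, the latter without a call under median-of-ratios scaling. Of the 7 salvage and breakdown genes NANS rose, and GNE, the entry enzyme of sialic acid synthesis, fell from 17.2 and 14.9 to 6.93 and 6.99 FPKM. GNPDA1, GNPDA2 and NAGK fell by 0.26 to 0.59. AMDHD2 (-0.18, adjusted p = 0.22) and RENBP (-0.23, adjusted p = 0.056) were not called, but RENBP was called lower with common-sum or median-of-ratios scaling, where the count of rises went to 6 and 4.

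**Figure D2:**
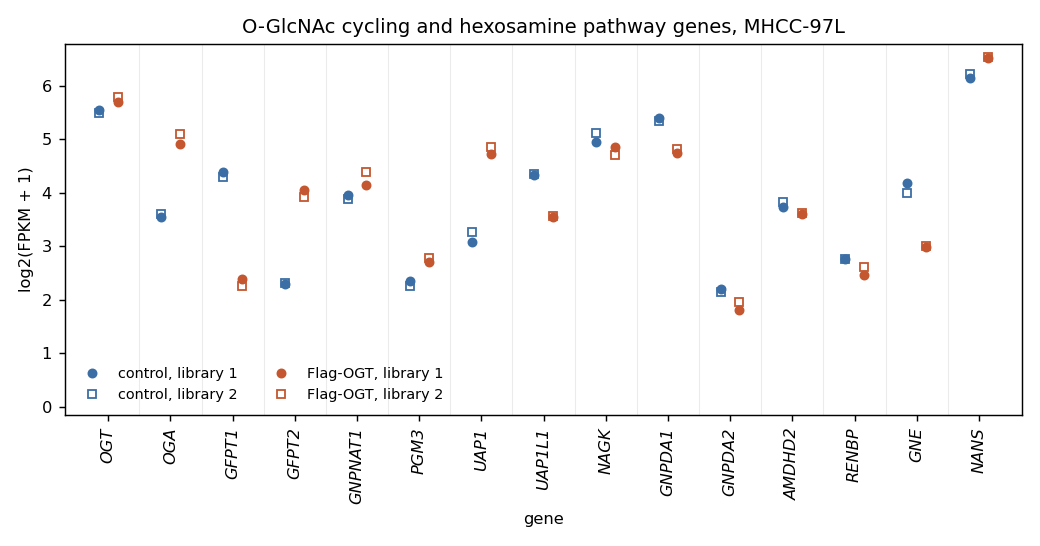
The 15 O-GlcNAc and hexosamine genes are plotted for the MHCC-97L libraries as log2(FPKM + 1), with controls in blue and Flag-OGT in orange and 1 symbol a library. OGA, GFPT2 and UAP1 sit higher and GFPT1, UAP1L1 and GNE lower in both Flag-OGT libraries, while OGT differs little.

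Of 22 listed partners of OGT on chromatin, ZNF263 included, 21 were tested, 14 rose and 5 fell, with a median of 0.32; with median-of-ratios scaling 10 rose and 5 fell. BAP1, which removes ubiquitin from histone H2A, rose from 21.5 and 20.6 to 70.2 and 69.3 FPKM, the widest change of the list (1.68 ± 0.05). KAT8, the acetyltransferase of the NSL complex, rose from 19.1 and 19.2 to 52.1 and 50.9 FPKM, and SIN3B, a corepressor scaffold, from 10.95 and 12.01 to 29.3 and 28.8 FPKM. For these genes the groups were clearly apart. HCFC1 rose by 0.95 on the log2 scale, and its paralog HCFC2 was at 1.00 and 1.17 against 0.87 and 1.24 FPKM, with overlapping groups. All 3 TET genes rose, TET1 from 0.15 and 0.20 to 1.55 and 1.72 FPKM. TET1 and TET2 were under 0.5 FPKM in both controls and could pass the filter only through the Flag-OGT libraries. The filter thus set the direction of both, which are among the 14 rises. SIN3A (0.31), KANSL1 (0.29), PHF20 (0.32) and MCRS1 (0.17) were called higher but not with median-of-ratios scaling. FOXK2, MBD6, KANSL2 and ASXL2 fell by 0.28 to 0.64. ZNF263 was at 15.0 and 14.2 FPKM in control libraries and 12.5 and 13.1 FPKM with Flag-OGT (-0.17 ± 0.07, adjusted p = 0.042). Its groups did not overlap, but the call was lost without any 1 of the 4 libraries (adjusted p from 0.06 to 0.2), with quantile normalization and with no filter.

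Most transcription factors that keep hepatocyte identity fell. Of 26 listed, 21 were tested, 16 fell, 15 of them at least 2-fold, 4 rose and PPARA was not called; their median was -1.84. FOXA2, a pioneer factor of liver enhancers, went from 27.6 and 32.6 to 0.51 and 0.46 FPKM (-4.38 ± 0.11). HHEX, a homeobox factor of the early liver bud, fell from 33.7 and 32.9 to 1.35 and 1.73 FPKM. The change of HNF4A, whose levels are given above, was -3.85 ± 0.07. CEBPA was at 85.3 and 87.3 FPKM in control libraries and kept 10.2 and 8.77 FPKM with Flag-OGT. Of the nuclear receptors, NR1H4, the bile acid receptor FXR, went from 9.23 and 8.92 to 0.13 and 0.17 FPKM. NR1I2, the drug sensor PXR, went from 2.33 and 2.49 FPKM to 0 in both Flag-OGT libraries. For each of these factors both Flag-OGT libraries lay far below both controls. GATA4 (8.62 and 9.41 to 20.1 and 19.04 FPKM), TBX3 (3.24 and 3.02 to 8.98 and 8.80 FPKM) and ONECUT2 rose; GATA6 (0.27) was called higher too, but not with median-of-ratios scaling (adjusted p = 0.32). Leukocyte and endothelial marker sums were also lower in these libraries, as given above, and their part was not tested.

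**Figure D3:**
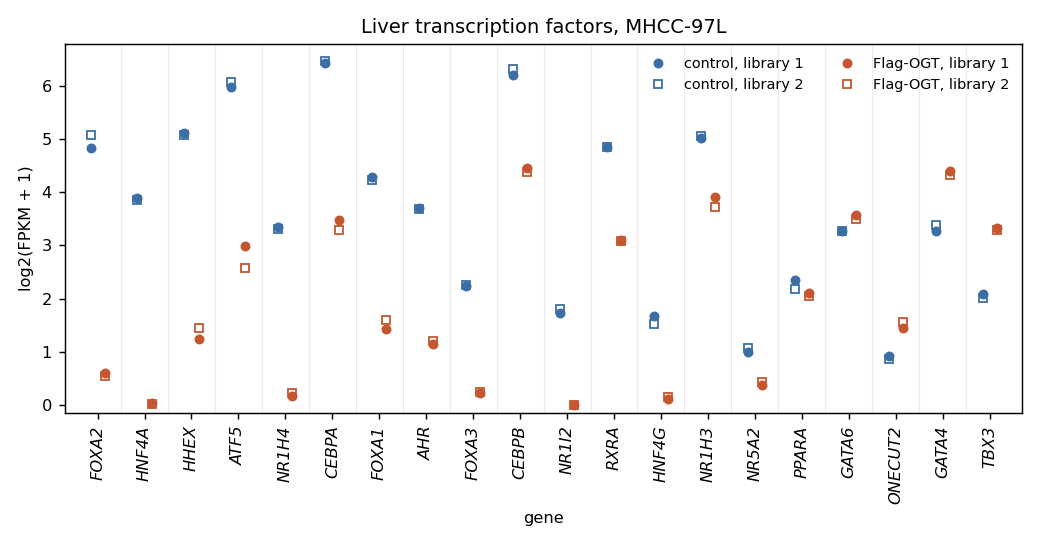
Of the 21 tested liver transcription factors 20 are plotted as log2(FPKM + 1) in each MHCC-97L library, ordered by change, with controls in blue and Flag-OGT in orange. From FOXA2 to NR5A2 both Flag-OGT libraries lie below both controls, and GATA4 and TBX3 lie above.

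Most secreted products of hepatocytes fell too: of 44 listed 29 were tested, 23 fell and 4 rose, with a median of -1.90. Among plasma carriers, transferrin (TF) was at 43.7 and 42.9 against 0.29 and 0.31 FPKM. Retinol-binding protein (RBP4) was at 32.9 and 30.8 against 0 and 0.07 FPKM. Among protease inhibitors SERPINA1, alpha-1-antitrypsin, went from 27.5 and 28.2 to 0.64 and 0.19 FPKM. Transcripts of these 3 genes were nearly absent in both Flag-OGT libraries. Coagulation genes were low in the controls, with prothrombin (F2) at 5.77 and 5.65 FPKM, and 5 of 6 tested fell. ITIH4 (0.27 and 0.37 to 4.17 and 4.43 FPKM), F12, HPX and APOM rose; all but ITIH4 stayed under 4 FPKM. FGA, the fibrinogen alpha chain, was at 5.05 and 5.77 FPKM in control libraries and 0.05 and 0 FPKM with Flag-OGT (-2.64 ± 0.08).

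Hepatocyte enzymes and transporters were mixed: of 24 tested, 15 fell and 8 rose, with a median of -1.16. The bile canalicular pump ABCC2 went from 123 and 115 to 0.55 and 0.47 FPKM (-6.31 ± 0.07). GSTA1, a glutathione transferase, was at 60.5 and 53.3 FPKM in the controls. UGT1A1, which conjugates bilirubin, was at 32.2 and 29.6 FPKM in the controls. Both were listed at 0 in both Flag-OGT libraries, although genes of the UGT1A locus share exons and their reads are split with uncertainty. HGD of tyrosine breakdown fell from 36.5 and 35.1 to 0.08 and 0.03 FPKM. CYP27A1 of bile acid synthesis fell from 41.0 and 43.0 to 0.88 and 0.57 FPKM. The urea cycle went the opposite way in part. ASS1 rose from 18.3 and 19.8 to 62.2 and 64.0 FPKM. CPS1, the entry enzyme of the cycle, rose from 0.03 and 0.01 to 2.59 and 3.43 FPKM, while ASL fell. OTC was listed at 0 in all 4 libraries.

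Keratins and junction genes fell in 23 of 29 tested and rose in 4, with a median of -1.56. All 6 tested keratins fell by at least 2.96 on the log2 scale, and the summed level of the 7 listed was 6925.4 and 6998.9 FPKM in control libraries and 30.73 and 18.69 FPKM with Flag-OGT. KRT18, the partner of KRT8, went from 2086 and 2137 to 16.3 and 12.4 FPKM. KRT20, a keratin of gut epithelium, went from 286 and 296 to 0.25 and 0.06 FPKM. ELF3, an epithelial ETS factor, went from 149 and 135 to 0.25 and 0.18 FPKM. All 3 were high in both controls and low in both Flag-OGT libraries. Of 10 tight junction genes 9 fell, with CLDN4 from 43.8 and 44.8 to 0.53 and 0.75 FPKM, and OCLN rose (0.92). E-cadherin (CDH1) was low throughout, at 1.77 and 1.52 against 0.87 and 0.70 FPKM. Beta-catenin (CTNNB1) rose slightly (0.30), as did the desmosomal DSC2 and DSP.

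Mesenchymal genes moved in both directions, with 11 higher and 14 lower of 27 tested and a median of -0.46. The widest rise was that of vimentin (VIM), an intermediate filament protein, from 7.37 and 5.95 to 289 and 301 FPKM (5.28 ± 0.08). The widest fall was that of fibronectin (FN1), a matrix protein, from 704 and 680.0 to 1.92 and 1.76 FPKM (-7.93 ± 0.05). These 2 usual mesenchymal markers thus moved in opposite directions. TWIST2, a relative of TWIST1, rose from 0 and 0.05 to 7.78 and 6.57 FPKM. SNAI2 (Slug), a repressor of E-cadherin, rose from 4.44 and 3.96 to 9 and 9.58 FPKM. SNAI1 (Snail), of the same family, fell from 15.0 and 14.3 to 1.86 and 2.42 FPKM. The groups of each were apart, so the Snail family moved in both directions. The actin-binding tropomyosin TPM2 fell from 509 and 539 to 13.5 and 12.3 FPKM. The hyaluronan receptor CD44 fell from 70.5 and 72.4 to 0.18 and 0.04 FPKM. N-cadherin (CDH2), an adhesion protein, fell from 15.6 and 15.0 to 4.48 and 4.22 FPKM. SPARC (2.67), COL1A1 (2.60) and COL5A1 (1.90) rose from control levels under 0.5 FPKM, so the filter set their direction. The same held for the rises of TWIST1, TWIST2 and ACTA2. It also held for the falls of CD44 and LUM, whose levels with Flag-OGT were under 0.5 FPKM. The tested fibroblast markers COL1A1 and ACTA2, which rose, and LUM, which fell, belong to this list too; their levels as markers of another cell type are given above, and their part was not tested.

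Matrix adhesion genes fell in 24 of 37 tested and rose in 9, with a median of -1.61. Of 9 tested integrins 8 fell. ITGA3, a laminin receptor subunit, went from 104 and 104 to 2.71 and 2.37 FPKM. The common beta subunit ITGB1 went from 89.2 and 91.0 to 15.7 and 18.0 FPKM, while ITGA5 of the fibronectin receptor fell only by 0.36 on the log2 scale. LAMB3, a laminin chain of epithelial basement membranes, went from 14.6 and 14.6 to 0.04 and 0.03 FPKM. Of the 5 basement membrane collagens 4 rose. COL4A2 was at 0.68 and 0.74 FPKM in control libraries and 15.9 and 14.5 FPKM with Flag-OGT, and COL18A1 fell. COL4A1, COL4A5 and COL4A6 rose too, but from control levels under 0.5 FPKM, so the filter set the direction of these rises. The protease inhibitors TIMP1, TIMP2 and TIMP3 all fell, TIMP3 from 44.1 and 43.3 to 3.42 and 3.30 FPKM. MMP7, a secreted matrix protease, was at 199 and 197 FPKM in control libraries and 0.10 and 0.05 FPKM with Flag-OGT. S100A3, a calcium-binding protein, was at 331 and 332 FPKM in control libraries and 0.39 and 0.23 FPKM with Flag-OGT. Both promoters are shown because they hold the AP-1 letters TGANTCA, in capitals, on the gene's strand, beginning 67 and 225 bases before the start (RefSeq, GRCh38.p14, chr11:102530761-102530860 and chr1:153549409-153549508, both minus strand):
MMP7: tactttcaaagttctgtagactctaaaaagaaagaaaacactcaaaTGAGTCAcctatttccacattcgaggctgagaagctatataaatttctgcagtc
S100A3: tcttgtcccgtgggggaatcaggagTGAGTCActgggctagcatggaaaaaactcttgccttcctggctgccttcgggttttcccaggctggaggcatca
Promoter windows of 250 bases before the start were matched by symbol for 11086 of the 13671 tested genes (81.1%) and searched on both strands. A match is a description of the letters and not a site of binding. The AP-1 letters stood in 3.94% of tested promoters, in 5.06% of those of genes called lower and in 3.4% of those called higher. Among genes lower by at least 5 on the log2 scale it was 10 of 109 (9.17%), and among genes higher by as much 1 of 23. The share over all RefSeq promoters was 6.6%, above that of the tested genes.

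Calcium-binding S100 proteins and membrane-binding annexins had the lowest median of the 32 lists, -4.43; 18 of 21 tested fell and 1 rose. S100A10 and its partner ANXA2 form a complex at the plasma membrane. S100A10 went from 3104 and 3073 to 142 and 142 FPKM. ANXA2 went from 1983 and 1891 to 30.2 and 31.0 FPKM. S100A11 fell from 3047 and 3161 to 36.5 and 27.2 FPKM, and S100P, also of this family, from 311 and 291 to 0.70 and 0.23 FPKM. The groups of these 4 genes were wide apart, with S100A10 keeping the highest level. ANXA6 was the 1 member that rose, from 0.53 and 0.60 to 42.8 and 43.2 FPKM (4.81 ± 0.06), and S100A1 and S100A13 were not called.

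Of the aldo-keto reductases, 6 of 9 fell and 2 rose. AKR1B1, aldose reductase, fell from 2279.9 and 2190.0 to 135 and 131 FPKM. AKR1B10, its close relative, fell further, from 4868 and 4614 to 2.96 and 2.71 FPKM, so the more abundant of the pair was AKR1B10 in both controls and AKR1B1 in both Flag-OGT libraries. The AKR1C genes are near-identical, so the split of reads among them is uncertain. AKR1A1 and AKR7A2 rose, AKR7A2 by 1.29. Of 13 tested aldehyde dehydrogenases 8 rose and 5 fell. ALDH3A1 went from 976 and 988 to 1.78 and 1.23 FPKM. The mitochondrial ALDH2 went from 237 and 229 to 34.7 and 35.1 FPKM. ALDH1A2, which makes retinoic acid in the embryo, rose from 0.48 and 0.25 to 14.02 and 13.6 FPKM.

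Antioxidant genes of the NRF2 pathway, 4 regulators included, fell in 23 of 28 and rose in 4, with a median of -2.40. NRF2 itself (NFE2L2) fell from 22.0 and 21.6 to 4.59 and 5.72 FPKM. Its inhibitor KEAP1 rose from 8.46 and 9.33 to 25.1 and 24.8 FPKM. Activator and inhibitor thus moved in opposite directions, with no overlap of the groups, as for 91.8% of all tested genes. NQO1, a quinone reductase, went from 642 and 639 to 2.95 and 2.81 FPKM (-7.37 ± 0.09). HMOX1, haem oxygenase, went from 538 and 524 to 14.3 and 13.6 FPKM. The glutathione genes GCLC, GCLM, GSR and SLC7A11 fell by 2.11 to 3.11. Ferritin light chain (FTL), the most abundant transcript of the controls at 22373 and 23525 FPKM, was at 628 and 572 FPKM with Flag-OGT. The heavy chain FTH1 fell from 6734 and 6829 to 588 and 557 FPKM. GPX1, GSTP1 and PRDX6 rose by 1.00 to 1.35 and PRDX1 was not called. GPX2, a glutathione peroxidase of the gut and liver, went from 1497 and 1505 to 0.84 and 0.77 FPKM. Its promoter is shown for the letters TGACNNNGC of the antioxidant response element, in capitals, which read on the opposite strand and begin 122 bases before the start (RefSeq, GRCh38.p14, chr14:64942813-64942912, minus strand):
GPX2: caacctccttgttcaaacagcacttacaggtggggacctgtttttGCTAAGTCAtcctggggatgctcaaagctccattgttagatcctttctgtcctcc
These letters stood in 6 of 22 matched promoters of the antioxidant list (27.3%) and in 11.9% of tested promoters, 12.3% of those of genes called lower and 11.5% of those called higher. Among genes lower by at least 5 on the log2 scale it was 11 of 109 (10.1%), and among genes higher by as much 1 of 23. The motifs can share bases, and 42 tested promoters held a stretch that reads as both this element and the AP-1 letters.

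AP-1 subunits and genes driven by MAP kinase signalling fell in 29 of 32 tested and rose in 2, with a median of -2.35. The AP-1 subunit FOSL1 went from 118 and 129 to 1.5 and 1.07 FPKM (-5.77 ± 0.09). FOS went from 15.4 and 16.6 to 0.34 and 0.23 FPKM. JUN fell less, from 79.4 and 81.0 to 56.2 and 55.8 FPKM, so the subunits fell unequally. EGR1, an immediate early factor, went from 24.4 and 26.1 to 0.89 and 0.84 FPKM. Feedback inhibitors fell in 9 of 10. The ERK phosphatase DUSP6 went from 48.1 and 48.2 to 0.30 and 0.26 FPKM. SPRY4, an inhibitor of receptor signalling to RAS, went from 8.65 and 8.04 to 0.04 and 0.02 FPKM. The ETS factor ETV4 went from 58.8 and 56.0 to 0.43 and 0.27 FPKM. DUSP6, SPRY4 and ETV4 were present in both controls and near 0 in both Flag-OGT libraries. BATF3 (1.67) and DUSP7 (1.49) rose. Receptors upstream were split, 5 up and 5 down. ERBB3 fell from 24.1 and 23.0 to 2.24 and 2.66 FPKM and its partner ERBB2 rose from 4.14 and 4.01 to 19.4 and 17.2 FPKM. AXL fell from 12.8 and 11.95 to 0.49 and 0.58 FPKM. FGFR3 rose from 5.16 and 4.69 to 41.9 and 38.0 FPKM, and of the 4 FGF receptors only FGFR4 fell (-1.48). In insulin and IGF signalling 5 genes rose and 8 fell. IRS1, the relative of IRS4, fell from 5.30 and 4.85 to 0.21 and 0.15 FPKM. The growth factor IGF2 rose from 0.62 and 0.44 to 5.03 and 4.34 FPKM. IGFBP4, which binds IGFs, went from 131 and 133 to 0.55 and 0.42 FPKM.

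The promoters of DUSP6 and of PHGDH, the entry enzyme of serine synthesis, are shown because they hold GGAGGAGGA, in capitals, a repeat like the core of the known ZNF263 motif, in genes that moved in opposite directions. In DUSP6 it reads on the opposite strand and begins 242 bases before the start; in PHGDH 3 overlapping copies read on the gene's strand and begin 48 bases before it (RefSeq, GRCh38.p14, chr12:89352652-89352751, minus strand, and chr1:119711834-119711933, plus strand):
DUSP6: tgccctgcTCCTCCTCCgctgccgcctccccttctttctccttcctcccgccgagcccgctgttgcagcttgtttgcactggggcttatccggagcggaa
PHGDH: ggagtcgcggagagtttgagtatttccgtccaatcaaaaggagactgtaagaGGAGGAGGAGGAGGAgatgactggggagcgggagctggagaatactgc
The repeat stood in 3.53% of tested promoters, 4.26% of those of genes called lower and 3.17% of those called higher, and in 3.02% of all RefSeq promoters. For larger changes the order turned: it was 3 of 109 (2.75%) among genes lower by at least 5 on the log2 scale and 3 of 23 among genes higher by as much, and 4.21% against 6.83% at a change of at least 3. Of the 24 matched AP-1 and MAPK promoters 4 held it (16.7%), while 0 of these 24 held the AP-1 letters. In the other lists searched, the repeat stood in 0 of 17 HOX promoters and 1 of 22 antioxidant promoters. It stood in 1 of 25 promoters of secreted hepatocyte proteins and 0 of 20 of hepatocyte enzymes and transporters. All 5 sequences were chosen after their values were seen.

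Innate immune genes were lower as well. Of 28 tested interferon and sensing genes 20 fell and 2 rose, with a median of -0.91. OAS1, which makes the activator of RNase L, went from 184 and 181 to 0.23 and 0.04 FPKM, and OAS3 went from 20.6 and 21.1 FPKM to 0 in both libraries. IFITM3, a block to virus entry, fell from 385 and 403 to 7.79 and 6.88 FPKM. The DNA sensor IFI16 was at 13.3 and 13.1 against 0.02 and 0.02 FPKM. IFITM1, a relative of IFITM3, rose by 2.32 ± 0.08. The groups of these genes did not overlap, which held for 91.8% of all tested genes. Antigen presentation genes fell in 16 of 22 and rose in 4. B2M, the light chain of class I molecules, went from 434 and 393 to 108 and 114 FPKM. The immunoproteasome subunit PSMB8 went from 14.7 and 12.6 to 0 and 0.10 FPKM. HLA-B and HLA-C rose, but these loci are polymorphic and near-identical, so their reads are assigned with uncertainty. NF-kappaB genes and chemokines fell in 20 of 26 and rose in 4, with a median of -1.34. TNFAIP2, a gene induced by TNF, went from 54.3 and 52.4 to 0.59 and 0.54 FPKM. The cytokine IL32 went from 53.7 and 58.3 to 1.31 and 0.50 FPKM. The TNF receptor TNFRSF1A went from 236 and 245 to 23.1 and 22.0 FPKM. RELA, the main NF-kappaB subunit, fell only by 0.23 on the log2 scale, and CCL5 rose from 10.6 and 11.7 to 20.6 and 20.3 FPKM.

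Enzymes of serine, one-carbon, proline and creatine metabolism rose in 21 of 26 tested and fell in 4, with a median of 1.12; with median-of-ratios scaling 18 rose and 5 fell. PHGDH was at 38.6 and 40.4 FPKM in control libraries and 406 and 379.6 FPKM with Flag-OGT (3.28 ± 0.06). MTHFD2, the mitochondrial folate enzyme of growing cells, went from 0.10 and 0.03 to 49.3 and 56.7 FPKM. All 8 one-carbon genes were called higher, but the smallest change, 0.14, was below the 0.19 of the median gene. PYCR1 of proline synthesis went from 0.25 and 0.38 to 108 and 102 FPKM. Asparagine synthetase (ASNS) went from 44.7 and 42.3 to 211 and 215 FPKM. Creatine genes diverged. The kinases CKB (7.20 and 8.14 to 1511 and 1434 FPKM), CKMT1A and CKMT1B rose, the last pair being near-identical copies that share reads. GATM, which starts creatine synthesis, fell from 18.0 and 18.1 to 0.04 and 0.06 FPKM. The creatine transporter SLC6A8 fell from 128 and 124 to 66.3 and 61.3 FPKM.

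Glycolysis genes showed no common direction, with 10 higher and 12 lower of 23 tested and a median of -0.27. HK2 rose from 0.10 and 0.09 to 6.36 and 6.92 FPKM. HK1, the other listed hexokinase, fell from 50.9 and 50.1 to 26.4 and 25.0 FPKM. Among lactate transporters SLC16A1 (MCT1) rose from 7.20 and 7.53 to 37.8 and 44.9 FPKM. SLC16A3 (MCT4) fell from 93.1 and 98.7 to 0.75 and 0.42 FPKM. The transporter with the higher level was thus SLC16A3 in both controls and SLC16A1 in both Flag-OGT libraries. PKM fell from 1964 and 2084 to 679 and 642 FPKM. Lipid genes differed by branch. Of 15 cholesterol synthesis genes 11 rose and 2 fell, with MVD at 11.7 and 12.8 against 53.8 and 51.8 FPKM, and SREBF2, their regulator, rose by 1.46. All 8 lipid droplet and acyl-CoA synthetase genes fell. The 11 fatty acid genes were mixed, with 3 higher, 5 lower and a median of -0.03. Of these the desaturases FADS1 (52.7 and 49.0 to 1.85 and 2.05 FPKM) and FADS2 fell, and ACLY rose by 0.89.

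HOX genes, which encode position along the body axis, rose in 32 of 35 tested (39 had values), 30 of them at least 2-fold, with a median of 2.29 and the same counts under common-sum, median-of-ratios and quantile scaling. In the HOXD cluster the summed level was 0.50 and 0.37 FPKM in control libraries and 145.76 and 139.65 FPKM with Flag-OGT. All 7 tested genes rose, but with controls this low a HOXD gene could pass the filter only through the Flag-OGT libraries. The direction of these 7, which are among the 32 rises, was thus set by the filter. The same held for rises in the other clusters from control levels under 0.5 FPKM, HOXB9 and HOXA9 among them. The summed levels cover all 9 HOXD genes with values and do not depend on the filter. HOXD13, of the distal limb and urogenital tract, went from 0.02 and 0 to 22.3 and 22.3 FPKM. HOXD11 went from 0.04 and 0.04 to 29.9 and 25.1 FPKM. HOXD10 was listed at 0 in both controls but reached 17.3 and 18.4 FPKM in the Flag-OGT libraries. The 7 tested genes were close to 0 in both controls and present in both Flag-OGT libraries. HOXD1 and HOXD12 stayed under the filter, HOXD12 at 0 in all 4 libraries and HOXD1 at 0.23 and 0.23 against 0.03 and 0.08 FPKM. In the HOXA cluster HOXA9 went from 0.14 and 0.16 to 25.5 and 27.3 FPKM. HOXA10 went from 0.71 and 0.72 to 13.8 and 15.4 FPKM. HOXA3 fell from 16.7 and 17.3 to 11.8 and 11.4 FPKM, and HOXA2 and HOXA13 were not called. HOXB9 went from 0.12 and 0.08 to 82.8 and 80.9 FPKM. HOXB7, already at 19.7 and 19.8 FPKM, rose to 32.7 and 30.4 FPKM. All 8 tested HOXC genes rose, HOXC10 from 1.85 and 1.81 to 26.4 and 22.7 FPKM. Neighbouring HOX genes share transcripts and antisense RNAs, and the sources used here do not say whether the counting used strand.

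**Figure D4:**
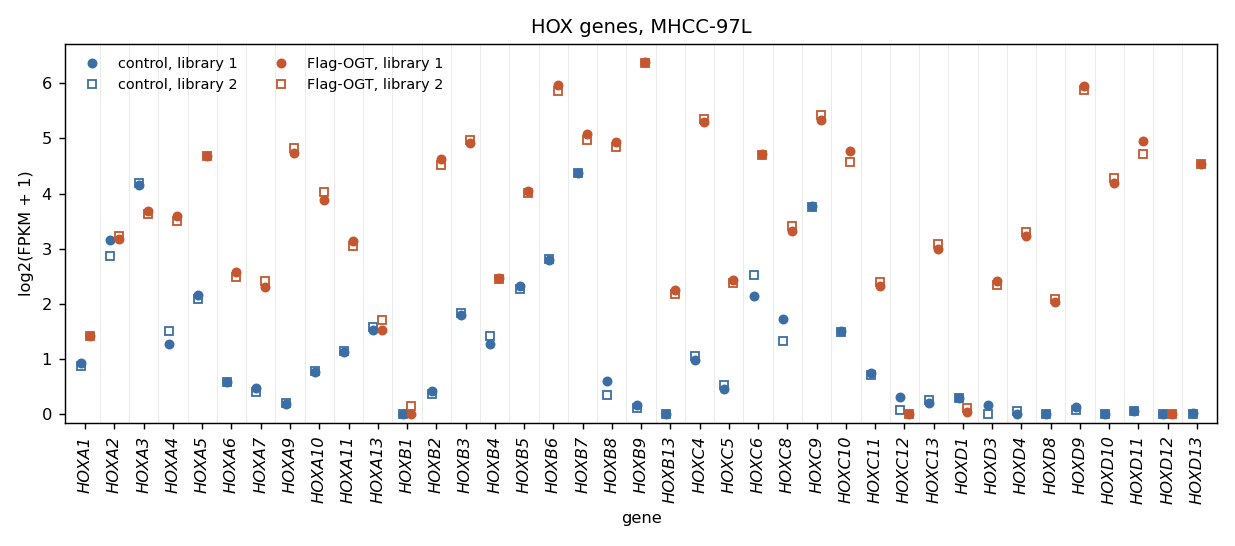
All 39 HOX genes with values are plotted by cluster as log2(FPKM + 1) in each MHCC-97L library, with controls in blue and Flag-OGT in orange. Most control points lie under 2 while the Flag-OGT points of HOXB9 are the highest of all, and HOXA2, HOXA3 and HOXA13 show no gain beyond the spread or a fall.

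Of 14 tested embryonic kidney and urogenital genes (20 had values) 9 rose and 3 fell, a share called near the 84.5% of all tested genes, with a median of 1.25; their summed level was 40.58 and 40.22 FPKM in control libraries and 67.3 and 69.8 FPKM with Flag-OGT. SIX2, which maintains nephron progenitors, went from 0.05 and 0 to 17.8 and 17.6 FPKM (4.19 ± 0.07). SALL2, a zinc-finger factor, went from 0.04 and 0.06 to 8.04 and 7.53 FPKM. PAX2, a paired-box factor of the nephron, went from 0.03 and 0 to 1.78 and 1.76 FPKM. These 3 genes were near 0 in both controls and could pass the filter only through the Flag-OGT libraries, so the filter set their direction. The same held for the rises of EMX2, EYA1 and AQP1. It also held for the falls of PAX8 and OSR1, which passed only through the controls. The summed levels cover all 20 genes with values and do not depend on the filter. EYA1, EYA3 and SIX4 rose by 1.14, 1.37 and 1.44. PAX8, a partner of PAX2 in the kidney, fell from 2.07 and 2.40 FPKM to 0 in both libraries. OSR1, an early kidney factor, fell from 18.2 and 17.4 to 0.09 and 0.17 FPKM, and GATA3 by 0.85 on the log2 scale. WT1 (-0.19, adjusted p = 0.093) and SALL1 (-0.11, adjusted p = 0.21) were not called, though both were called lower with common-sum or median-of-ratios scaling. Of the tubule genes only AQP1, a water channel, was tested, and it rose from 0.45 and 0.44 to 1.23 and 1.16 FPKM. LRP2 was at 0 in both controls and reached 0.41 and 0.47 FPKM with Flag-OGT, and AQP2 and CDH16 were at 0 or nearly so. Neuronal cytoskeleton genes rose in 13 of 19 tested and fell in 6. TUBA1A, an alpha-tubulin of neurons, went from 0.67 and 0.36 to 51.3 and 52.9 FPKM. DPYSL5, a protein of growth cones, went from 0.24 and 0.22 to 19.7 and 18.3 FPKM. TUBB3, the usual tubulin marker of neurons, fell from 53.1 and 56.3 to 11.7 and 10.3 FPKM. The summed level of the list was alike, 458.2 and 448.16 against 459.81 and 467.23 FPKM, and DCX stayed under 0.2 FPKM. Of oncofetal and progenitor genes 6 rose and 12 fell of 21 tested. AFP, the fetal albumin, fell from 3.18 and 3.53 to 0.22 and 0.03 FPKM. The surface antigen CD24 fell from 85.3 and 84.0 to 2.48 and 2.19 FPKM. LIN28B, a repressor of let-7, rose from 0.01 and 0 to 4.79 and 5.55 FPKM.

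Cytosolic ribosomal proteins rose in 74 of 78 tested and fell in 2, with a median of 1.12; with quantile normalization 63 rose and 8 fell. Their summed level was 83868 and 84335 FPKM in control libraries and 189585 and 187278 FPKM with Flag-OGT. RPS6, a substrate of S6 kinase, went from 589.8 and 587 to 3211 and 3531 FPKM. RPS2, the highest transcript of the Flag-OGT libraries, went from 3490.2 and 3729 to 15328 and 15274 FPKM. RPL30 and RPS27 fell, RPL30 from 2150.4 and 2259 to 1439.7 and 1445 FPKM; the call of RPS27 was lost without control library 1 or Flag-OGT library 1 (adjusted p = 0.06 and 0.092). Processed pseudogenes can take reads of these short genes, so single members are uncertain. Both Flag-OGT libraries were above both controls in the summed level of the list.

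Polycomb and Trithorax genes rose in 30 of 44 and fell in 6, with a median of 0.38. The share called was near the 84.5% of all tested genes, and with median-of-ratios scaling the counts were 23 and 10. RBBP7, a histone-binding subunit of PRC2, went from 31.8 and 30.7 to 146 and 167 FPKM. The PRC2 partner MTF2 went from 3.66 and 4.06 to 14.5 and 14.7 FPKM. EZH2, the H3K27 methyltransferase, changed by 0.19, no more than the median gene. PHF19 fell from 80.2 and 79.4 to 15.7 and 14.1 FPKM, and CBX8 of PRC1 from 20.9 and 22.5 to 6.68 and 6.27 FPKM. Replication and cell cycle genes rose in 30 of 44 and fell in 7, with a median of 0.44, and 22 and 12 with median-of-ratios scaling, where 5779 of all 13671 tested genes were higher; the share called was near the 84.5% of all tested genes. CDT1, which loads the MCM helicase, rose from 27.7 and 29.8 to 136 and 123 FPKM. Of the 10 licensing genes 9 rose. The D cyclins diverged. CCND2 went from 0.01 and 0.03 to 12.1 and 13.3 FPKM. CCND1 and CCND3 fell, CCND1 from 50.7 and 50.1 to 16.9 and 16.3 FPKM. CDKN2A, which encodes p16 and ARF, rose from 90.03 and 100.2 to 434 and 415 FPKM. Its neighbour CDKN2B, which encodes p15, fell from 6.34 and 6.36 to 1.12 and 1.48 FPKM. MKI67, a proliferation marker, was at 16.3 and 15.7 against 17.8 and 17.5 FPKM and was not called.

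Lysosome and autophagy genes fell in 23 of 34 and rose in 3, with a median of -1.14. All 8 cathepsins, the proteases of the lysosome, fell. CTSZ went from 124 and 128 to 0.45 and 0.59 FPKM and CTSD from 724 and 750.0 to 108 and 102 FPKM. SQSTM1, an autophagy receptor, fell from 1410.1 and 1391 to 73.7 and 69.6 FPKM. MAP1LC3A fell from 22.2 and 26.0 to 0.23 and 0.18 FPKM while its paralog MAP1LC3B rose by 0.42. CD68, which also marks macrophages, is a lysosomal membrane protein and belongs to this list too. Of 28 heat shock genes 11 rose and 11 fell. The small heat shock proteins HSPB1 (1435 and 1597 to 73.1 and 58.7 FPKM), HSPB8 and CRYAB fell, and HSP90AA1 rose from 256 and 241 to 418 and 455 FPKM. HSPA1A was at 409.5 and 439 against 1.80 and 0.58 FPKM and HSPA1B at 98.7 and 93.5 against 349 and 347 FPKM, near-identical copies whose split is uncertain. Of the metal-binding metallothioneins MT1X (2.61 and 4.01 to 54.4 and 51.5 FPKM), MT2A (19.3 and 22.0 to 120.1 and 102 FPKM) and MT1F rose and MT1A fell, with the same limit on shared reads.

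**Figure D5:**
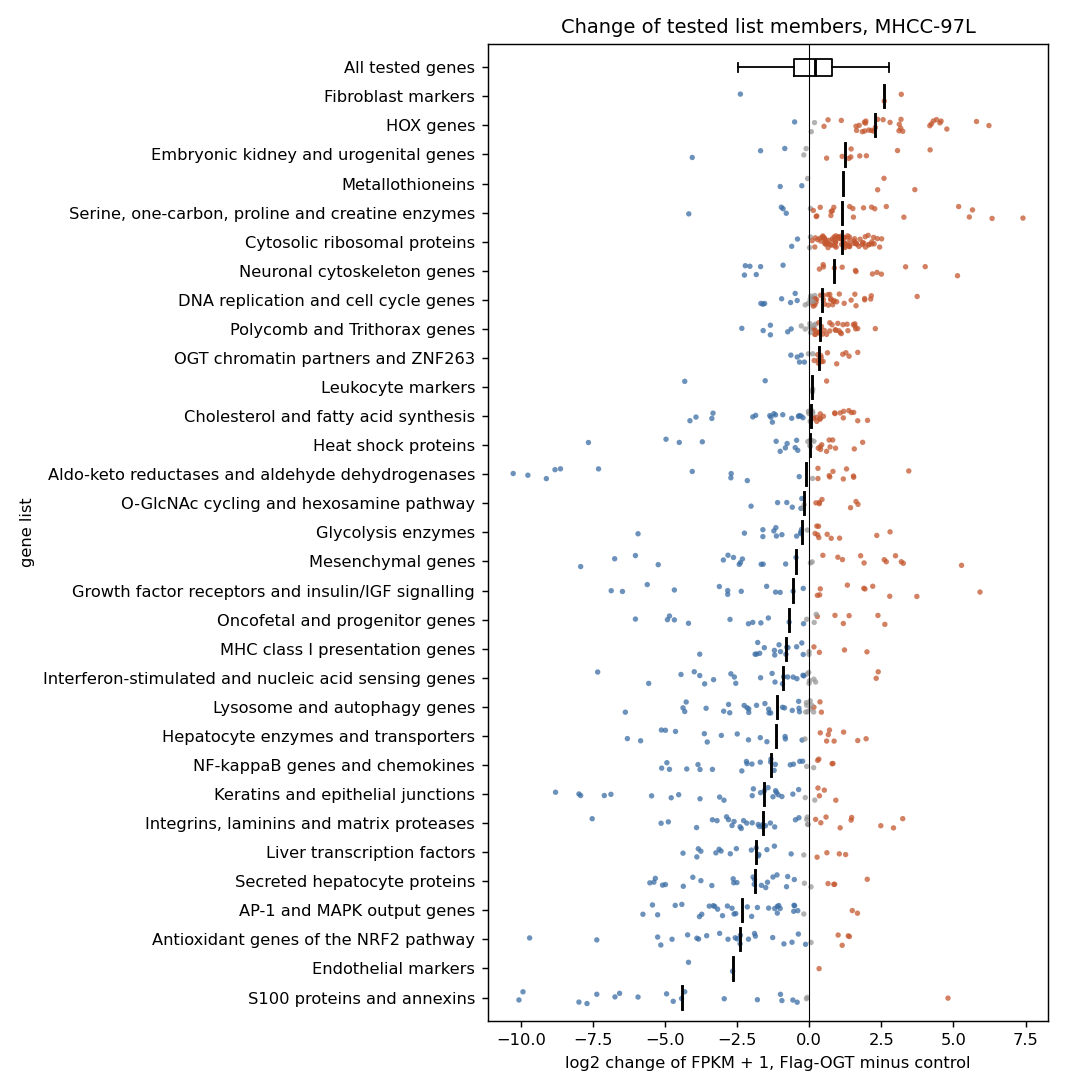
Each point is a tested member of a list, at its log2 change (Flag-OGT minus control) in MHCC-97L, orange called higher, blue called lower and grey not called, with a black bar at the list's median; the box on top spans the quartiles of all tested genes with their median of 0.19, and its whiskers reach to 1.5 times the box width beyond it. HOX genes lie to the right and S100 proteins and annexins to the left of most genes.

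The change in MHCC-97L was set against that in MHCC-97H by the contrast of both differences, called for 8541 of 13671 genes (62.5%), 4001 more positive and 4540 more negative in MHCC-97L. Each line has its own controls, so the contrasts share no library. Of 9959 genes called in both lines 9064 moved the same way and 895 in opposite ways. The difference was not called for HNF4A (0.06 ± 0.09, adjusted p = 0.56), KRT8 (-0.47 ± 0.32, adjusted p = 0.22), AKR1B10 (-0.05 ± 0.17, adjusted p = 0.8) or HOXA9 (0.03 ± 0.10, adjusted p = 0.8). PHGDH differed by -5.05 ± 0.08 (adjusted p = 7.6e-10). Its control level was 38.6 and 40.4 FPKM in MHCC-97L and 0.98 and 1.06 FPKM in MHCC-97H. With Flag-OGT it was 406 and 379.6 and 651 and 645 FPKM in the same order. TSPAN8, a tetraspanin of tumour cells, was at 80.9 and 69.4 FPKM in control libraries of MHCC-97L and 0.90 and 1.04 FPKM in those of MHCC-97H, and at 0 in all 4 Flag-OGT libraries. SH3BGR was at 1.84 and 1.62 against 1.99 and 1.93 FPKM in MHCC-97L and rose from 0.79 and 0.55 to 76.5 and 76.0 FPKM in MHCC-97H. ARRDC5 went from 0.21 and 0.07 to 34.9 and 35.0 FPKM in MHCC-97L and was at 0.28 and 0.07 against 0.16 and 0.19 FPKM in MHCC-97H, a difference of 4.98 ± 0.14. CSAG1 and SLC38A5 were also among the 5 most positive differences, with higher controls in MHCC-97H, and HTRA3 and CST1 among the 5 most negative. HIST1H4J, a histone gene whose copies share reads, was at 0 in all libraries but those of MHCC-97L with Flag-OGT (21.2 and 21.5 FPKM).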

How the data were processed

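Total RNA of the 8 libraries was made into libraries with a SMARTer kit, per the labels. The deposited values are FPKM per gene, made by the authors and rounded to 2 decimals. The submitters' processing notes name HISAT2 2.1.0, Bowtie2, RSEM 1.2.4, DESeq2 1.18.1 and hg19, without saying which step each served. Of 18928 features 26 whose symbols had become dates were left out; no value column was left unused.

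Here log2(FPKM + 1) of the deposited values was fitted with limma 3.58.1 (R 4.3.3) on all 8 libraries with 4 group means, no covariate, 4 residual degrees of freedom and a trend in the variance. Genes with a mean of at least 0.5 FPKM over the 4 MHCC-97L libraries were tested, and p-values were adjusted over all of them. The steps were tested on simulated data. Plots and motif searches used Python 3.11.15.

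Named were the 10 highest and 10 lowest called changes without overlap, from each list at most 3 called members at its upper and lower end, all members of the O-GlcNAc, partner, liver factor, kidney, fibroblast, leukocyte and endothelial lists, and the 5 genes at either end of the difference between lines. Others were chosen after their values were seen, and some genes that the rule names are not reported here. The members and lists were chosen with earlier results of these data known. Alternatives changed the pseudocount, the filter, the scaling, the variance trend, the libraries fitted and the replicate block.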

Additional observations from a re-analysis of the deposited data

Results flagged for a closer look

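Over all 13671 tested genes the Flag-OGT change in MHCC-97L and that in MHCC-97H had a called difference in 8541 (62.5%). In 895 of the 13671 both changes were called, in opposite directions. Among the 237 named genes that were tested the difference was called for 161, and 12 of them were called in both lines in opposite directions. Both counts are near the shares over all tested genes, and some genes were named for the size of the difference. These 12, with OGT and OGA, are given with the difference (MHCC-97L minus MHCC-97H) and both log2 changes. OGT changed by 0.23 in MHCC-97L and 0.80 in MHCC-97H, a difference of -0.57. For OGA the changes were 1.43 and 0.88, a difference of 0.55.

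Higher in MHCC-97L and lower in MHCC-97H with Flag-OGT were 8 genes. DNAJC12, a cochaperone, changed by 3.10 and -0.77 (difference 3.87). Its controls were at 1.32 and 1.28 FPKM in MHCC-97L and 16.4 and 21.7 FPKM in MHCC-97H, and its Flag-OGT libraries at 19.5 and 18.0 and 10.5 and 10.7 FPKM, so the lines were closer with Flag-OGT. DSP, the desmosomal plaque protein, changed by 0.52 and -1.02 (difference 1.54) and the desmosomal cadherin DSC2 by 0.35 and -0.37 (difference 0.73). TBX3 changed by 1.26 and -0.21 (difference 1.47). MAP1LC3B of autophagy changed by 0.42 and -0.70 (difference 1.11), NFKBIB, an inhibitor of NF-kappaB, by 0.79 and -0.31 (difference 1.09), and the water channel AQP1 by 0.60 and -0.37 (difference 0.97). PGM3 of the hexosamine pathway changed by 0.44 and -0.46 (difference 0.89).

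The opposite held for 4 genes. HTRA3, a serine protease, changed by -3.11 in MHCC-97L and 1.96 in MHCC-97H (difference -5.06), from 12.7 and 12.6 to 0.64 and 0.53 FPKM and from 0.43 and 0.26 to 3.93 and 4.51 FPKM. GATA3 changed by -0.85 and 0.78 (difference -1.63), the nuclear receptor NR5A2 by -0.63 and 0.57 (difference -1.19), and MBD6 of the BAP1 complex by -0.42 and 0.20 (difference -0.62).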

How the results depend on the processing

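The main fit called 11555 of 13671 tested genes. Over the alternatives run the count ranged from 9379 of 10975 tested (mean FPKM of at least 2) to 13342 of 18194 tested (no filter). The number tested thus differed between these settings. When 1 of the 4 libraries was left out, the lone library was assumed to vary like the other groups. The difference between lines was called for 7139 to 9234 genes, at the same 2 settings. The change of OGT went from 0.23 to 0.11 with a common sum and 0.02 with median-of-ratios scaling, and to 0.18 to 0.28 with a library left out; the cause was not tested. Signs turned, all near 0 and uncalled after the turn, for ATG7 (-0.04), KANSL3 (-0.07), MCRS1 (-0.04) and SH3BGR (-0.02) with median-of-ratios scaling, for CD14 (-0.01) and PTPRC (-0.01) with quantile normalization, and for HCFC2, which ranged from -0.16 to 0.10 with a library left out. With the replicate block 11418 genes were called, 8249 for the difference between lines, OGT stayed called at 0.23 (adjusted p = 0.011) and ZNF263 lost its call (adjusted p = 0.078). Libraries that share a number did not deviate together (r = -0.102 over genes in MHCC-97L), and the main fit used no pairing. With 2 libraries a group this value cannot settle whether equal numbers share a culture or batch. When the numbers were crossed, an alternative chosen after seeing the data, 11605 genes were called. Depth is unknown, so no interval covers counting error.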
